A study of Mus musculus with 8 samples.

Results

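The 8 genes described here encode transcription factors that build the nephron in the embryo or return in the repairing tubule: Sox9, Sox4, Sox11, Klf6, Myc, Lhx1, Pax2 and Pax8. They were chosen by name, with earlier results of these data known. All 8 were found among the 34450 genes of the deposited table of FPKM. These are fragment counts divided by transcript length and by the library's total of mapped fragments. Poly(A) RNA of kidneys from C57BL/6J mice aged 8 weeks was sequenced at day 3 after ischaemia-reperfusion injury (IRI), in which renal blood flow is interrupted and restored. The 4 hypoxia libraries (HxIRI, numbered 1 to 4) came from mice placed in hypoxia before the injury. The 4 normoxia libraries (IRI, numbered 5 to 8) came from mice kept in normoxia before the same injury. All 8 kidneys had IRI, uninjured kidneys were not analysed here, and each comparison is thus of injured kidneys with and without hypoxic preconditioning. Nothing in the labels ties each library to its own mouse, so p-values describe library-to-library spread alone, part or all of which may be technical.

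In the embryonic kidney, Pax2 and Pax8 specify the nephric lineage and act with the LIM homeobox factor Lhx1 to form the ureteric bud and nephron tubules, while Sox9, Sox4 and Sox11 act in the branching bud and the early nephron. Most of this programme falls silent in the adult, where Pax8 persists in tubular epithelium. After injury, surviving proximal tubule cells in mice switch on Sox9 and proliferate, and the zinc finger factor Klf6 and the growth regulator Myc are induced early.

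Ribosomal transcripts took 21.6% to 67.4% of the assigned fragments in the hypoxia libraries and 13.6% to 72.5% in the normoxia libraries. Total depth, estimated from the spacing of low FPKM values, was 8810000 to 14700000 fragments. Depth in protein-coding genes was less even, at an estimated 5150000, 8100000, 1790000 and 1960000 fragments in hypoxia libraries 1 to 4. In normoxia libraries 5 to 8 it was 7890000, 2820000, 8860000 and 1990000. Normoxia library 5 stood apart: its Spearman correlation with the rest averaged 0.633, while that of each other library averaged 0.767 to 0.832. Hypoxia libraries 1 and 2 (0.924) and 3 and 4 (0.921) resembled each other in pairs. With each pair averaged, neither Sox9 nor any of the 8 genes called as deposited in the lists described below passed (adjusted p 0.133 to 0.256 for those 8). Kidney epithelium was present throughout, since Cdh16, the kidney-specific cadherin, was 56.0 to 137 FPKM in the hypoxia libraries and 55.6 to 152.8 FPKM in the normoxia libraries. Over all 14444 genes tested, the median log2 change was -0.14 as deposited and 0.016 with TMM scaling (trimmed mean of log ratios), so changes of members are also given relative to that median.

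Promoter windows were available from RefSeq (GRCm38.p6, 250 bases before to 50 after a start) for 6 of the 8 members. Those of Klf6, Sox4 and Sox11, whose means were lower after hypoxia, and of Lhx1, whose mean was higher, are shown 5′ to 3′ to set the start regions of these genes side by side. The windows of Pax8, whose mean after hypoxia was 0.683 of that after normoxia, and of Pax2 (1.29) were searched but are not printed. Capitals mark CCAAT on either strand (the NF-Y box), CACGTG (the E-box that Myc and Max can bind) and TGACGT on either strand (the core of the cyclic AMP response element).
Klf6, chr13:5861239-5861538, plus strand: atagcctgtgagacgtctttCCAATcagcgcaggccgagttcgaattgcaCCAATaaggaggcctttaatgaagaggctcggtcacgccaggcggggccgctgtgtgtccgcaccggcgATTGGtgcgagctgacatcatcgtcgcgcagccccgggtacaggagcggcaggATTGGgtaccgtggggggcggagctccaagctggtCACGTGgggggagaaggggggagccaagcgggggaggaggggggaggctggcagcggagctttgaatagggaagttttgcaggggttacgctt
Sox4, chr13:28953650-28953949, minus strand: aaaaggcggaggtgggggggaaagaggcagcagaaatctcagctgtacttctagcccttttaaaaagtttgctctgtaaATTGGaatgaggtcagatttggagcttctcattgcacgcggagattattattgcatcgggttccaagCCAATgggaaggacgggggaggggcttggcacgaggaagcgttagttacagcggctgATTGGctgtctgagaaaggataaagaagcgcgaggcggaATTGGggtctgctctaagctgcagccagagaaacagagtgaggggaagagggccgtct
Sox11, chr12:27342669-27342968, minus strand: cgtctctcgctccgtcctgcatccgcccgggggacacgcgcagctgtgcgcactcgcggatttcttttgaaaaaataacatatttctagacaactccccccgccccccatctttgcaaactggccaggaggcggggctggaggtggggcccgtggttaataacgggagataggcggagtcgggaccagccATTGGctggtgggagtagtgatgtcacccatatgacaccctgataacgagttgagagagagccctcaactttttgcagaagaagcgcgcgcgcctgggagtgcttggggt
Lhx1, chr11:84525485-84525784, minus strand: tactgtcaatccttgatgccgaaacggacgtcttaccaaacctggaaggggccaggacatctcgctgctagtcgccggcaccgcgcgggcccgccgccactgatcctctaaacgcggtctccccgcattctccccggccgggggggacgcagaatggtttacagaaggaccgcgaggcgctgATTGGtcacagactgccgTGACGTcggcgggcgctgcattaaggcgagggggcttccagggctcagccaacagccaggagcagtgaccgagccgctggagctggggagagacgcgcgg
CCAAT was found 4 times in the Klf6 window and 4 times in the Sox4 window, and once each in those of Sox11, Lhx1 and Pax8. At least 1 match occurs in 37.4% of all 32851 windows and at least 4 in 1.06%. CACGTG was found in the Klf6 window only among those of the 6 members, and in 7.2% of all windows, while TGACGT was found in the Lhx1 window only, and in 7.5% of all. The AP-1 motif TGANTCA, present in 7.8% of windows, and TATAAA, present in 13.6%, were in none of the members' windows. The hypoxia response core was searched as ACGTG (19.6% of windows), which was found only within the E-box of Klf6, and as GCGTG (32.4%), which was found in the windows of Klf6, Sox4, Sox11 and Pax2. The GC box GGGCGG, present in 35.7% of windows, was found in windows of Klf6, Sox11, Pax8 and Pax2. A match is a run of letters and not a bound site.

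Sox9 had the largest log2 change among the 7 members tested, those with a mean of at least 0.5 FPKM. The high-mobility-group factor Sox9 marks tubule cells that re-enter the cell cycle after injury. Its level was 0.66, 0.41, 0.17 and 0.20 FPKM in hypoxia libraries 1 to 4, against 1.46, 3.08, 6.05 and 3.55 FPKM in normoxia libraries 5 to 8. Every hypoxia library lay below every normoxia library, as for 3.06% of the tested genes, and the mean after hypoxia was 0.102 of the mean after normoxia. Sox9 averaged 0.360 ± 0.227 FPKM in the hypoxia group, against 3.54 ± 1.90 FPKM in the normoxia group (SD, n = 4 each). It fell by 2.14 ± 0.45 (SE) on the log2(FPKM + 0.5) scale, or by 2.0 relative to the median of all genes (limma adjusted p = 0.0221). It was the only one of the 7 to pass an adjusted p under 0.05 as deposited, where 0.305% of all tested genes were higher and 0.602% were lower. In these whole-kidney samples, fewer cells of a type and less RNA per cell cannot be told apart. An estimated 6.19 to 33.1 fragments in each hypoxia library and 83.8 to 368 in each normoxia library stood behind the values. Sox9 did not pass without normoxia library 7 (adjusted p = 0.122), with the hypoxia libraries averaged in pairs (adjusted p = 0.275), with FPKM scaled to protein-coding genes (adjusted p = 0.0738), with no filter (adjusted p = 0.330) or with an untrended prior variance (adjusted p = 0.0943). Its change lay between -2.95 and -1.65 over the alternatives in which it was tested, with adjusted p between 0.00225 and 0.330. Sox9 (ENSMUSG00000000567) lies on chromosome 11 of GRCm38 from 112782224 to 112787760 on the plus strand.

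**Figure D1:**
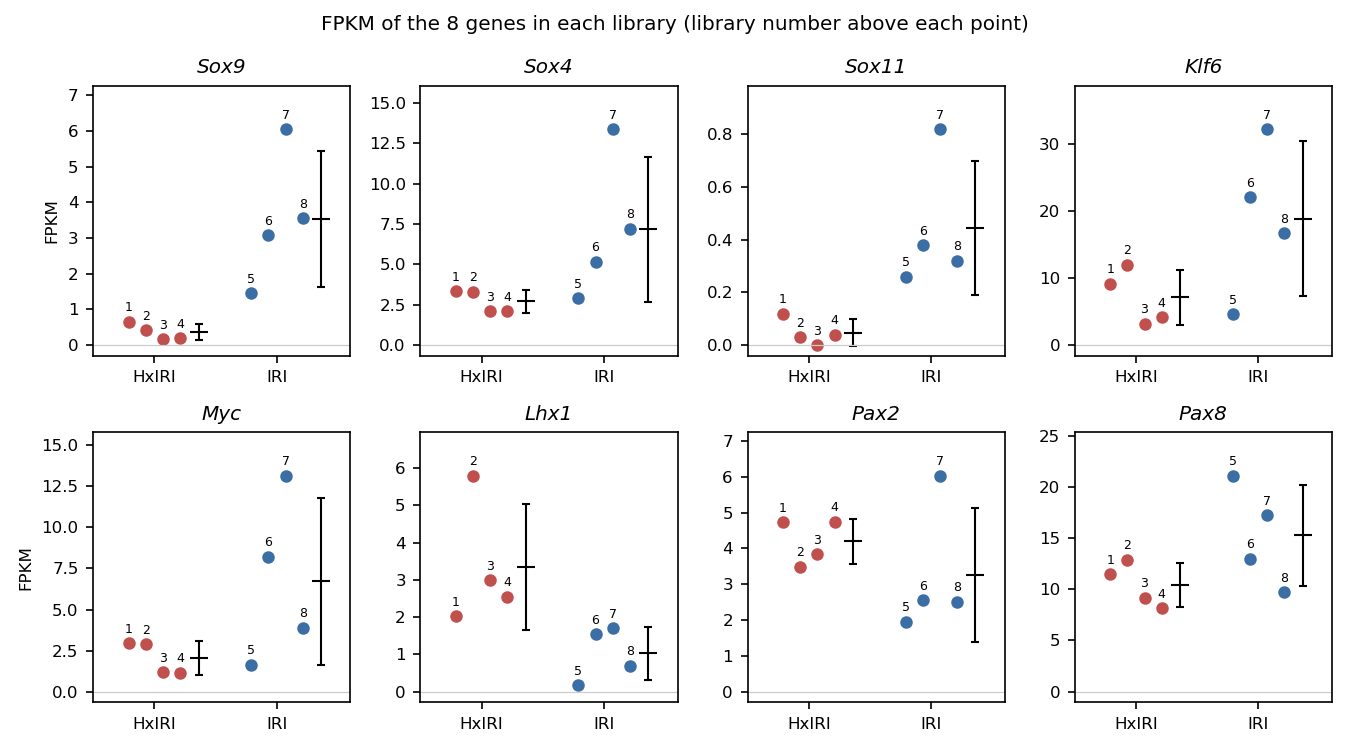
FPKM of each of the 8 genes (vertical axes, each on its own scale) in the 4 HxIRI libraries (red) and the 4 IRI libraries (blue), with library numbers above the points and the mean ± SD as a black bar. Sox9 and Sox11 were lower and Lhx1 was higher in all 4 HxIRI libraries than in any IRI library, while the other 5 genes overlapped.

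Sox4 and Sox11 belong to the SoxC group of high-mobility-group factors, which act together in embryonic progenitors. Sox4 had 3.33, 3.30, 2.10 and 2.09 FPKM in hypoxia libraries 1 to 4, against 2.92, 5.17, 13.4 and 7.21 FPKM in normoxia libraries 5 to 8. Normoxia library 5 fell within the range of the hypoxia libraries, while the other 3 normoxia libraries lay above it. Its log2 change was -1.10 ± 0.56 (SE) and did not pass (adjusted p = 0.579). With TMM scaling and without normoxia library 5 it was -1.15 and passed (adjusted p = 0.0209, and at least 0.130 in the other alternatives). Sox11 was listed at 0.12, 0.03, 0 and 0.04 FPKM in hypoxia libraries 1 to 4, against 0.26, 0.38, 0.82 and 0.32 FPKM in normoxia libraries 5 to 8. The groups did not overlap, as for 2.21% of the 30982 genes above 0 in a library (1.37% were higher with no overlap). Its mean of 0.246 FPKM was under the filter, so it was tested only with no filter, where its log2 change was -0.76 ± 0.20 (SE, adjusted p = 0.446). No gene passed in that limma fit, although 665 were higher and 1356 were lower at an unadjusted p under 0.05. About 0 to 12.1 fragments in a hypoxia library and 24.6 to 100 in a normoxia library stood behind the Sox11 values. On GRCm38, Sox4 (ENSMUSG00000076431) lies on chromosome 13 from 28948919 to 28953713 on the minus strand, and Sox11 (ENSMUSG00000063632) lies on chromosome 12 from 27334264 to 27342574 on the minus strand. Each is a gene with a single exon.

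The scaling of a library cancels in a ratio of 2 genes within it, and the ratios of Sox9 and of Sox11 to Sox4 did not overlap between the groups. The ratio of Sox9 to Sox4 was 0.198, 0.124, 0.0810 and 0.0957 in hypoxia libraries 1 to 4, against 0.5, 0.596, 0.453 and 0.492 in normoxia libraries 5 to 8. Normoxia library 5, which stood apart in its overall profile, lay within the range of its group in this ratio. The ratio of Sox11 to Sox4 was at most 0.0360 in the hypoxia libraries and at least 0.0444 in the normoxia libraries. Sox9 was thus lower relative to Sox4, and not only relative to the library total. These and the later ratios were chosen after their values were seen and are descriptions.

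Klf6 and Myc followed each other closely through all 8 libraries, in FPKM not scaled between libraries. Genes outside the 8 lay nearer to each of them, as described below. Protein-coding FPKM summed to 129949.4, 171655.6, 50106 and 53994 in hypoxia libraries 1 to 4. In normoxia libraries 5 to 8 the sums were 200953.9, 72261.2, 166365.5 and 50007.1. The part of these sums in the likeness of Klf6 and Myc was not tested. Klf6, a zinc finger factor reported in mice to repress branched-chain amino acid breakdown in the injured proximal tubule, had 9.15, 12.0, 3.23 and 4.15 FPKM in hypoxia libraries 1 to 4, against 4.58, 22.1, 32.3 and 16.7 FPKM in normoxia libraries 5 to 8. Myc, which drives ribosome synthesis and cell growth, had 2.96, 2.89, 1.18 and 1.15 FPKM in hypoxia libraries 1 to 4, against 1.64, 8.22, 13.2 and 3.89 FPKM in normoxia libraries 5 to 8. The promoter window of Klf6 shown above holds 4 CCAAT boxes and an E-box, a motif found in 7.2% of all windows. No window was available for Myc, and whether Myc acts on Klf6 was not tested. For both genes, normoxia library 5 lay among the hypoxia libraries and the other 3 normoxia libraries lay above them all. The ratio of Klf6 to Myc lay between 2.74 and 4.15 in the hypoxia libraries and between 2.46 and 4.30 in the normoxia libraries, so the groups overlapped. The log2 changes of Klf6 (-1.24 ± 0.70, SE, adjusted p = 0.670) and of Myc (-1.28 ± 0.58, adjusted p = 0.481) did not pass. With TMM scaling and without normoxia library 5 both passed, at -1.51 for Klf6 (adjusted p = 0.00874) and -1.5 for Myc (adjusted p = 0.00727). In the other alternatives the adjusted p was at least 0.247 for Klf6 and at least 0.118 for Myc. On GRCm38, Klf6 (ENSMUSG00000000078) lies on chromosome 13 from 5861482 to 5870394 on the plus strand, and Myc (ENSMUSG00000022346) lies on chromosome 15 from 61985391 to 61990374 on the plus strand.

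Lhx1 differed in the other direction. This LIM homeobox factor is needed for nephron formation in the embryo and patterns the growing tubule. It had 2.03, 5.80, 2.99 and 2.55 FPKM in hypoxia libraries 1 to 4, against 0.18, 1.54, 1.70 and 0.70 FPKM in normoxia libraries 5 to 8. All 4 hypoxia libraries lay above all 4 normoxia libraries, as they did for 1.86% of the tested genes. The mean of Lhx1 was 3.34 ± 1.69 FPKM in the hypoxia group, against 1.03 ± 0.717 FPKM in the normoxia group (SD, n = 4 each). Its log2 change was 1.38 ± 0.49 (SE), or 1.52 relative to the median of all genes, and did not pass (adjusted p = 0.235). It passed with quantile normalization (1.58, adjusted p = 0.0403) and with TMM scaling without normoxia library 5 (1.29, adjusted p = 0.0462), and its adjusted p was 0.0687 to 0.931 in the other alternatives. The estimated fragments behind it were 94.8 to 337 in a hypoxia library and 10.2 to 102 in a normoxia library.

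Lhx1 (ENSMUSG00000018698) lies on chromosome 11 of GRCm38 from 84518284 to 84525535 on the minus strand, and the noncoding gene Lhx1os lies 125 bases away on the opposite strand. Lhx1os had 5.49, 9.47, 1.83 and 2.12 FPKM in hypoxia libraries 1 to 4, against 7.60, 1.67, 4.48 and 0.80 FPKM in normoxia libraries 5 to 8. Its groups overlapped, and normoxia library 5, the lowest in Lhx1, was the second highest in Lhx1os. Gm13415 overlaps Pax8 on the opposite strand, and Gm20395 and 1700039E22Rik overlap Pax2 in the same way, as Gm26735, which was not analysed here, overlaps Sox4. The labels name a stranded library kit and not how strand was used in counting, so reads of these overlapping genes could not be told apart here. Gm20395 was listed at 0.42, 0.11, 1.09 and 1.06 FPKM in hypoxia libraries 1 to 4 and at 0 in all 4 normoxia libraries.

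Pax2 and Pax8 showed no difference beyond the spread of their libraries. Pax2, a paired-box factor kept in the adult collecting duct, had 4.73, 3.49, 3.83 and 4.74 FPKM in hypoxia libraries 1 to 4, against 1.95, 2.56, 6.03 and 2.51 FPKM in normoxia libraries 5 to 8. The hypoxia libraries lay close together, above 3 normoxia libraries and below normoxia library 7. Its log2 change was 0.42, with a 95% confidence interval of -0.65 to 1.5 (adjusted p = 0.972), and it was 0.25 without normoxia library 5 and 0.72 without normoxia library 7. Pax8, its paralog in most tubule segments, had 11.5, 12.9, 9.17 and 8.14 FPKM in hypoxia libraries 1 to 4, against 21.1, 13.0, 17.2 and 9.71 FPKM in normoxia libraries 5 to 8. The highest value was that of normoxia library 5. Its log2 change was -0.49, with a 95% confidence interval of -1.81 to 0.83 (adjusted p = 0.977), and -0.03 (-0.63 to 0.57) with TMM scaling without that library. Neither gene passed in any alternative tried, and the intervals still allow changes of more than 1 on the log2 scale as deposited. On GRCm38, Pax2 (ENSMUSG00000004231) lies on chromosome 19 from 44756045 to 44837871 on the plus strand, and Pax8 (ENSMUSG00000026976) lies on chromosome 2 from 24420560 to 24475599 on the minus strand.

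**Figure D2:**
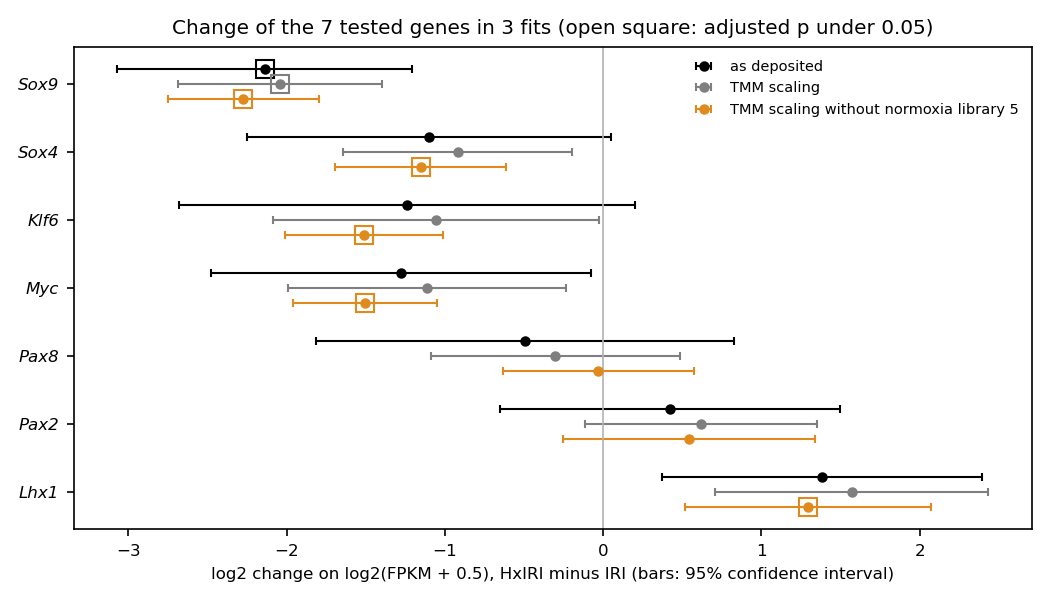
Log2 change of the 7 tested genes (HxIRI minus IRI) with 95% confidence intervals, as deposited, with TMM scaling, and with TMM scaling without normoxia library 5. An open square marks an adjusted p under 0.05, which Sox9 reached in all 3 fits, and Sox4, Klf6, Myc and Lhx1 only in the third.

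With TMM scaling of all 8 libraries, Sox9 (-2.04, adjusted p = 0.0179) was again the 1 member that passed, beside 1.21% of tested genes higher and 1.32% lower. Without normoxia library 5 as well, 4 members were lower (Sox9, Sox4, Klf6 and Myc) and 1 was higher (Lhx1) of the 7 tested, where 5.77% of all tested genes were higher and 5.32% lower. Leaving out that library from the TMM-scaled data therefore raised the count of all genes together with that of the members.

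The order of levels differed between the groups. After hypoxia the mean FPKM ran from Pax8 (10.4) through Klf6 (7.13), Pax2 (4.20), Lhx1 (3.34), Sox4 (2.71), Myc (2.05) and Sox9 (0.360) to Sox11 (0.0475). Each gene from Pax8 to Sox4 overlapped the next in its range over the libraries, while Myc lay above Sox9 and Sox9 above Sox11 with no overlap. Within every hypoxia library Pax8 still exceeded Klf6 and Sox4 exceeded Myc, while the other overlapping neighbours changed order between libraries. After normoxia the mean FPKM ran from Klf6 (18.9) through Pax8 (15.3), Sox4 (7.17), Myc (6.73), Sox9 (3.54), Pax2 (3.26) and Lhx1 (1.03) to Sox11 (0.445). There, neighbours overlapped in range except Pax2 and Lhx1. Within every normoxia library Pax8 still exceeded Sox4 and Myc exceeded Sox9, while the other overlapping neighbours changed order between libraries. The ratio of Lhx1 to Sox9 was 3.08, 14.2, 17.6 and 12.8 in hypoxia libraries 1 to 4, against 0.123, 0.5, 0.281 and 0.197 in normoxia libraries 5 to 8. Lhx1 thus exceeded Sox9 in all 4 hypoxia libraries, and Sox9 exceeded Lhx1 in all 4 normoxia libraries. The ratio of Sox9 to Pax2 was at most 0.140 after hypoxia and at least 0.749 after normoxia.

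**Figure D3:**
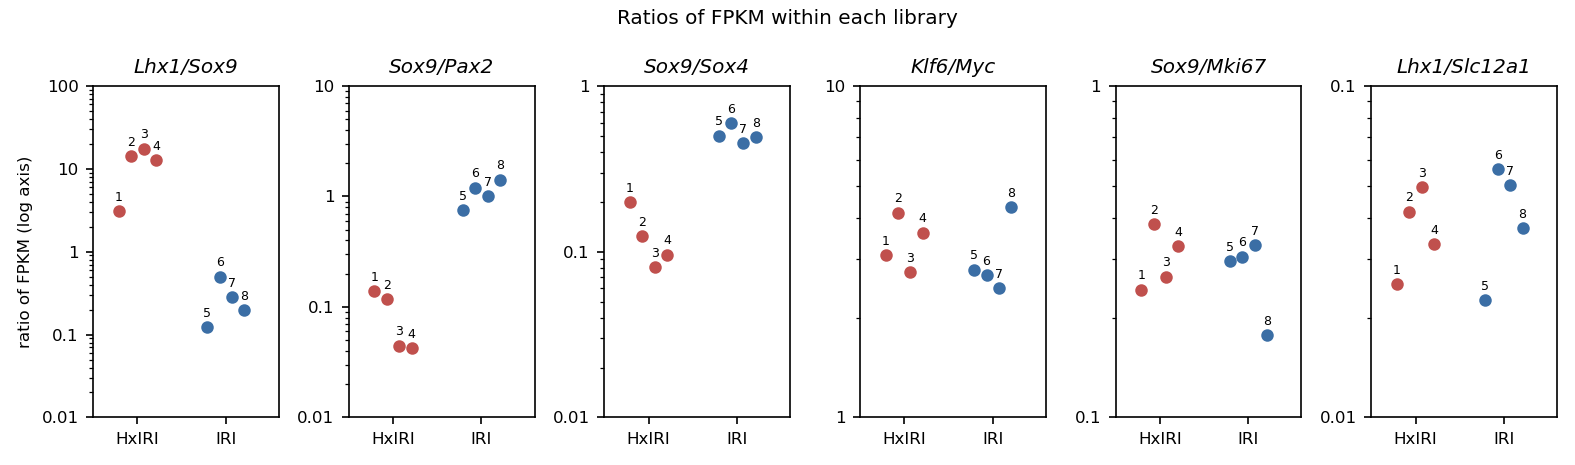
Ratios of FPKM between pairs of genes within each library (log axes) in the HxIRI (red) and IRI (blue) libraries, numbered 1 to 8. Lhx1/Sox9, Sox9/Pax2 and Sox9/Sox4 did not overlap between the groups, whereas Klf6/Myc, Sox9/Mki67 and Lhx1/Slc12a1 did.

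Summed markers of dividing cells, leukocytes and stroma were low in the same libraries as Sox9. The proliferation markers Mki67, Top2a, Cdk1, Ccnb1 and Birc5 summed to 0.91 to 8.51 FPKM in the hypoxia libraries and to 14.1 to 67.6 FPKM in the normoxia libraries, none was listed at 0, and 4 of the 5 fell. None of these 4 passed without normoxia library 7 (adjusted p 0.0953 to 0.208). Of all tested genes, 0.602% were lower as deposited and 1.32% with TMM scaling. The ratio of Sox9 to Mki67, which encodes a nuclear protein of cycling cells, was 0.243, 0.383, 0.266 and 0.328 in hypoxia libraries 1 to 4, against 0.296, 0.305, 0.331 and 0.177 in normoxia libraries 5 to 8. The groups overlapped in this ratio, whereas the ratio of Sox4 to Mki67 was at least 1.22 after hypoxia and at most 0.732 after normoxia. The ratios of Sox9 to the leukocyte gene Lyz2 and to the tubular injury gene Havcr1 overlapped between the groups as well. Leukocyte markers, of which the lysozyme gene Lyz2 made up most, summed to 7.45 to 51.4 FPKM after hypoxia and to 73.2 to 373 FPKM after normoxia, with 0 of 4 tested lower as deposited and 3 lower with TMM scaling, and the T cell gene Cd3e was listed at 0 in hypoxia library 4. The general leukocyte gene Ptprc was 0.24 to 0.62 FPKM in the hypoxia libraries, against 0.20, 0.74, 0.91 and 0.85 FPKM in normoxia libraries 5 to 8, so normoxia library 5 was the lowest of all. Stromal markers summed to 20.5 to 44.2 FPKM after hypoxia and to 81.3 to 244 FPKM after normoxia, with 0 of 4 lower as deposited and 3 lower with TMM scaling. The fourth, the pericyte gene Pdgfrb, was 5.51 FPKM in normoxia library 5, within its range of 4.46 to 9.13 FPKM in the hypoxia libraries. The part of these cells in the levels of Sox9, Sox4, Klf6 and Myc was not tested.

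Slc12a1, a marker of the thick ascending limb, was high in the same libraries as Lhx1. This salt cotransporter gene had 80.6, 139.0, 60.3 and 76.6 FPKM in hypoxia libraries 1 to 4, against 7.96, 27.5, 33.8 and 18.8 FPKM in normoxia libraries 5 to 8. The ratio of Lhx1 to Slc12a1 was 0.0252, 0.0417, 0.0496 and 0.0333 in hypoxia libraries 1 to 4, against 0.0226, 0.0560, 0.0503 and 0.0373 in normoxia libraries 5 to 8, and its groups overlapped. The 2 thick ascending limb markers, Slc12a1 and Umod, summed to 335 to 1575 FPKM after hypoxia and to 139 to 521 FPKM after normoxia, with neither listed at 0 nor passing as deposited. The ratio of Lhx1 to Umod also overlapped, at 0.00332 to 0.0109 after hypoxia and 0.000467 to 0.005825 after normoxia. The 5 proximal tubule markers summed to 350 to 575 FPKM after hypoxia and to 84.7 to 548 FPKM after normoxia, and none passed as deposited. Of these, Lrp2 was 54.3 to 90.3 FPKM after hypoxia and 22.6 to 53.9 FPKM after normoxia, with no overlap, while the others overlapped. The distal tubule markers Slc12a3 and Calb1 were also higher with no overlap. The part of these cells in the Lhx1 levels was not tested.

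The genes most like each member were taken as those with the smallest mean absolute difference in log2(FPKM + 0.5) over the 8 libraries, after centring each gene on its mean, among 9938 protein-coding genes. The FPKM were not scaled between libraries, so differences between whole libraries enter these distances. Nearest to Sox9 were Adam8, a metalloprotease gene of leukocytes and other cells (0.16), the replication helicase gene Mcm3 (0.17) and the mitotic spindle gene Dlgap5 (0.19). Nearest to Sox4 were Thbs2 (0.080), the nuclear pore gene Ndc1 (0.11) and the cyclin-dependent kinase gene Cdk6 (0.11). The AP-1 subunit gene Jun was among the nearest 3 of both Klf6 (0.21) and Myc (0.18), beside Akap12 and Smc4 for Klf6 and Reep4 and Itgb2 for Myc. Nearest to Lhx1 were Lgr4 (0.16), a receptor of R-spondins, Acot3 (0.20) and Klhl3 (0.22), a ubiquitin ligase adaptor of the distal tubule. Pax8 was nearest to Drosha (0.091), Mlph (0.10) and Tubgcp6 (0.10), and Pax2 to Apbb2 (0.15), Ptpro (0.16) and Ankrd13c (0.17). Among the members themselves, Klf6 and Myc were the nearest pair (0.23) and Sox9 and Lhx1 the farthest (1.76). The nearest 3 genes of Klf6 and of Myc named above all lay nearer to them than they did to each other.

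No tested relative of the 8 genes in the Sox, Pax, LIM homeobox and Klf families passed as deposited. Of 14 other Sox genes listed, 5 were tested, with Sox13 (log2 change 0.56, adjusted p = 0.914) and Sox6 (0.41, adjusted p = 0.927) having the smallest p. Sox12, the other SoxC gene, averaged 1.81 ± 0.753 FPKM in the hypoxia group, against 2.26 ± 1.68 FPKM in the normoxia group (SD, n = 4 each), with a log2 change of -0.16. None of 3 other Pax genes reached the filter, and the highest value among them was 0.14 FPKM (Pax9). None of 8 other LIM homeobox genes in the table reached it either, and the highest was 0.46 FPKM (Lmx1b, a podocyte factor). Of 13 tested Klf genes none passed as deposited, and with TMM scaling 1 was higher. That gene, Klf15, which controls amino acid and lipid metabolism, had 9.96, 29.1, 6.52 and 6.63 FPKM in hypoxia libraries 1 to 4, against 2.97, 3.95, 3.38 and 1.58 FPKM in normoxia libraries 5 to 8. Its groups did not overlap, and its log2 change was 1.74 ± 0.61 as deposited (SE, adjusted p = 0.220) and 1.92 with TMM scaling (adjusted p = 0.0323). Klf5, a factor of the collecting duct and of injured epithelium, had a log2 change of -1.14 (adjusted p = 0.319). Its groups did not overlap either, at 0.56 to 1.25 FPKM after hypoxia and 1.66 to 4.28 FPKM after normoxia. Of all tested genes, 1.86% were higher and 3.06% were lower with no overlap.

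Among 15 tested genes of nephron formation none passed as deposited, and the median log2 change was 0.12. Pou3f3, a POU factor of the embryonic distal nephron and thick limb, had 8.69, 8.20, 5.17 and 5.55 FPKM in hypoxia libraries 1 to 4, against 0.96, 3.65, 4.32 and 1.99 FPKM in normoxia libraries 5 to 8. Its groups did not overlap, as with Lhx1, and it passed with TMM scaling (log2 change 1.5, adjusted p = 0.0438, and 1.31, adjusted p = 0.406, as deposited). The ETS factor gene Etv4 was at most 0.18 FPKM after hypoxia and at least 0.26 FPKM after normoxia (log2 change -1.09, adjusted p = 0.316). The progenitor genes Eya1, Cited1 and Lgr5 did not exceed 0.14 FPKM in any library. Of 12 tested Notch pathway genes none passed, with a median of -0.24, and those with the smallest p were Heyl (-0.90, adjusted p = 0.506) and Rbpj (-0.45, adjusted p = 0.930).

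Genes reported to respond to these factors were read beside the 38.97% of all tested genes with a positive change and the median of -0.14. That share was 51.1% with TMM scaling and 52.3% without normoxia library 5 as well. The lists were chosen with earlier results of these data known, so their counts are descriptions and not tests of the factors' activity. Of 24 Myc targets, which include genes of ribosome synthesis, none passed as deposited, 3 had a positive change, and the median was -0.82. The spermidine synthase gene Srm (-1.87, adjusted p = 0.320) and Cad, which starts pyrimidine synthesis (-1.04, adjusted p = 0.385), had the smallest p. Srm was 60.7 FPKM in normoxia library 5 and 4.11 to 17.6 FPKM in the other normoxia libraries, and its log2 change was -1.12 without that library. Of the 24, 6 were lower with TMM scaling without normoxia library 5, beside 5.32% of all tested genes. In the Myc network, none of 11 tested genes passed as deposited, and the Max partner gene Mxd3 passed with TMM scaling (-1.47, adjusted p = 0.0406, and -1.51, adjusted p = 0.0734, as deposited). Of 19 genes of branched-chain amino acid breakdown, which Klf6 is reported to repress in mice, all 19 had a positive change and none passed as deposited, with a median of 1.11. With TMM scaling 8 passed, all higher, beside 1.21% of all tested genes higher. Without normoxia library 5 as well 17 passed, all higher, beside 5.77% of all tested genes higher. The 5 proximal tubule markers, whose segment uses this pathway, had a median log2 change of 1.15 with 4 positive, and the part of these cells in the levels of the 19 genes was not tested. Aldh6a1, which acts in valine breakdown, had 38.6, 82.7, 26.2 and 25.6 FPKM in hypoxia libraries 1 to 4, against 6.89, 19.3, 14.7 and 6.28 FPKM in normoxia libraries 5 to 8 (log2 change 1.81, adjusted p = 0.352, and 2.0, adjusted p = 0.0349, with TMM scaling). Bcat1, the cytosolic transaminase of this pathway, had a log2 change of 2.02 (adjusted p = 0.0734).

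Of 5 tested genes that Pax2 and Pax8 are reported to maintain in the mouse collecting duct, 1 rose as deposited and 3 with TMM scaling, with a median of 1.95. Of all tested genes, 0.305% were higher as deposited and 1.21% with TMM scaling. Aqp4, a basolateral water channel, had 3.70, 2.05, 3.93 and 4.27 FPKM in hypoxia libraries 1 to 4, against 0.26, 0.87, 0.34 and 0.39 FPKM in normoxia libraries 5 to 8 (log2 change 2.05 ± 0.44, SE, adjusted p = 0.0226). Aqp4 did not pass without normoxia library 7 (adjusted p = 0.102), with scaling to protein-coding FPKM (0.0957), with an untrended prior variance (0.0848), with no filter (0.271) or with averaged pairs (0.190). The groups did not overlap for this water channel, while those of Pax2 and Pax8 themselves did. The 2 collecting duct markers, Aqp2 and Atp6v1b1, summed to 39.1 to 162 FPKM after hypoxia and to 6.47 to 52.0 FPKM after normoxia. Neither passed as deposited. Aqp2 is also among the 5 tested genes above and made up the larger part of each sum, so the sum is not independent of them. Aqp2 passed with quantile normalization (adjusted p = 0.0176) and 3 further settings, and Atp6v1b1 with TMM scaling without normoxia library 5 (adjusted p = 0.0122). Of the 2 distal tubule markers 1 rose, the calbindin gene Calb1 (log2 change 3.1, adjusted p = 0.0198). Its adjusted p was 0.0630 without normoxia library 7, 0.269 with no filter and 0.133 with averaged pairs. None of 3 podocyte and 4 endothelial markers passed. The part of these cells in the Aqp4 levels was not tested. Of 15 tested genes of the injured tubule 2 fell, Cd44 and Krt20, with a median of -2.27, and 9 fell with TMM scaling without normoxia library 5. Of all tested genes, 0.602% were lower as deposited and 5.32% with TMM scaling without normoxia library 5. Neither Cd44 nor Krt20 passed without normoxia library 7 (adjusted p = 0.222 for Cd44 and 0.286 for Krt20). In the same order of genes, adjusted p was 0.0600 and 0.0574 with a pseudocount of 1, and 0.256 and 0.185 with averaged pairs. It was 0.443 and 0.487 with no filter, and 0.135 and 0.129 with an untrended prior variance. With scaling to protein-coding FPKM it was 0.123 and 0.0593. Cd44 also did not pass without hypoxia library 2 (0.0544), 3 (0.0547) or 4 (0.0660). Krt20 also did not pass without hypoxia library 3 (0.0814) or 4 (0.105), or without normoxia library 5 (0.104). Of 10 tested immediate early genes none passed as deposited and none had a positive change, with a median of -0.92. Atf3 (-1.33, adjusted p = 0.338) and Junb (-1.34, adjusted p = 0.507) had the smallest p among them, and 5 of 11 were lower with TMM scaling without normoxia library 5.

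**Figure D4:**
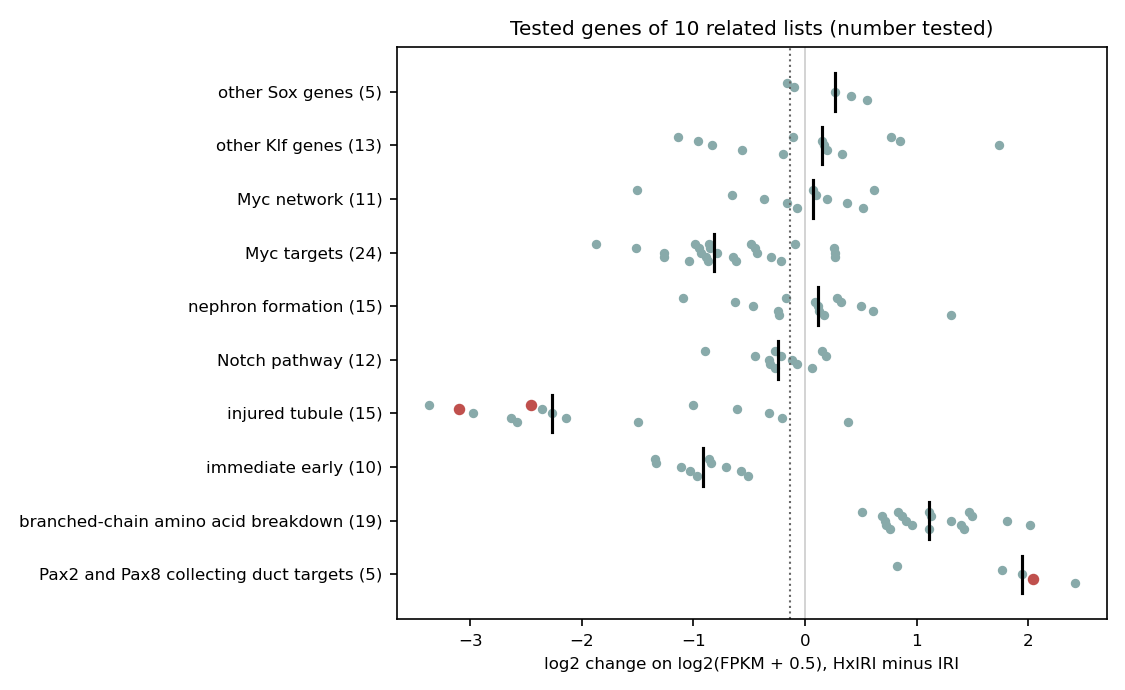
Log2 change (HxIRI minus IRI) of the tested genes in 10 lists related to the 8 factors, as deposited, with the number tested after each name. Black bars mark list medians, the dotted line the median of all tested genes (-0.14), and larger red points the genes with an adjusted p under 0.05 (Krt20, Cd44 and Aqp4).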

How the data were processed

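The authors deposited FPKM per gene and library, per the file headers, in 2 decimals and with no recorded scaling between libraries. The submitters' processing notes list HISAT2, StringTie and edgeR with neither version nor role. Which build and annotation were used is not given in the sources used here. All Ensembl identifiers matched GENCODE M21 (GRCm38), which gave symbols, coordinates and exon lengths. No read counts were used, so depth is an estimate from the spacing of low FPKM multiplied by length (single-exon genes, 600 to 3000 bases long), with no error attached.

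Genes with a mean of at least 0.5 FPKM were tested as log2(FPKM + 0.5), which understates changes of low genes, using the trended empirical Bayes fit of limma 3.58.1 (R 4.3.3), two-sided, adjusted by Benjamini-Hochberg over all 14444 genes. Adjusted p-values of alternatives come from limma fits with the named choice changed, over the genes that each leaves (30982 with no filter, 14414 without normoxia library 5). The step was run on simulated data with independent noise for each gene. That simulation lacks the differences between whole libraries seen here and so does not test their effect on the calls. TMM factors (30% and 5% trims) were computed from the published formula on the tested genes, as a scaling only. The members and the 22 lists (213 genes) were chosen with earlier results of these data known. Named were all members, up to 4 passing genes per list or otherwise the 2 with the smallest p, the 3 genes most like each member, and annotated genes within 10 kb of a member. A few further genes were named after their values were seen: Sox12, Pax9, Lmx1b, Eya1, Cited1, Lgr5 and Slc12a3, and the genes in the ratios. Not every gene the rule gives is printed. Alternatives changed the pseudocount, filter, scaling, variance prior, length trend, pairing of hypoxia libraries and each library in turn.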

Additional observations from a re-analysis of the deposited data

Results flagged for a closer look

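In 5 of 134 groups of 4 libraries, 1 library lay far from the others on the log2 scale (Dixon's test at the 95% level), which chance gives in about 1 group in 20. None of the 8 factors was among them. In hypoxia library 2, Lgr4, the gene most like Lhx1, had 29.3 FPKM, against 11.2 to 12.7 FPKM in the other hypoxia libraries. In hypoxia library 1, Cubn, an endocytic receptor gene of the proximal tubule, had 15.9 FPKM, against 23.3 to 24.3 FPKM in the others. In normoxia library 6, Cubn had 17.3 FPKM, against 7.19 to 8.12 FPKM in the others. In hypoxia library 2, the podocyte gene Podxl had 26.6 FPKM, against 16.0 to 17.2 FPKM in the others. In hypoxia library 1, Ptpro, a gene most like Pax2, had 1.23 FPKM, against 1.04 to 1.07 FPKM in the others.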

How the results depend on the processing

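Depth and single libraries limit these results: Sox9 and Sox11 rest on few fragments after hypoxia, and normoxia libraries 5 and 7 decide several calls. As deposited 0 members were called higher, 1 lower and all tested genes called were 131. The members called higher were 1 with quantile normalization and 1 with TMM scaling without normoxia library 5. The members called lower were 0 with no filter, 0 with a filter of 2 FPKM (under which Sox9 was not tested), 0 with scaling to protein-coding FPKM, 0 with an untrended prior variance, 0 with the hypoxia libraries averaged in pairs and 4 with TMM scaling without normoxia library 5. With each library left out they lay between 0 (without normoxia library 7) and 1. The number of all tested genes called was 80 with a pseudocount of 1, 0 with no filter, 366 with TMM scaling, 629 with quantile normalization, 231 with scaling to protein-coding FPKM, 1598 with TMM scaling without normoxia library 5, 451 with the trend with exon length removed, 25 with an untrended prior variance and 27 with averaged pairs. They lay between 15 and 270 with each library left out (without normoxia library 7 and 8). Of genes called, 33.6% were higher as deposited against 47.8% with TMM scaling, 44.5% with quantile normalization, 44.35% with the length trend removed and 52.0% with TMM scaling without normoxia library 5. That share was 68.0% with the untrended prior variance, 81.5% with averaged pairs, and 12.2% (without normoxia library 8) to 73.3% (without normoxia library 7) with each library left out. Of the 8 list genes called as deposited, 0 passed with no filter, averaged pairs or without normoxia library 7, 2 with the untrended prior variance, 3 with scaling to protein-coding FPKM and 5 with a pseudocount of 1. Of 67 named genes, 11 lost and 30 gained a call in at least 1 alternative, and no called change reversed. The cause was not tested. No paired analysis was possible because the groups share no replicate number (1 to 4 and 5 to 8).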
